A study of Sus scrofa with 9 samples.

Results

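The normal control (NC) group was made up of the 3 of the 9 libraries whose titles carry that name, and these 3 libraries are described here on their own. The series holds RNA-seq profiles of the abdominal aorta of Tibetan minipigs, a small breed of Sus scrofa, from 3 groups of 3 libraries, and the study used it to follow the vessel wall under a high fat/cholesterol diet. The NC pigs ate a regular diet for 24 weeks. The animals were male and were 3 to 4 months old when bought, and no genetic change is named for them. For sequencing 3 pigs were drawn at random per group, and the vessel was taken at the lower end of the abdominal aorta. The sample labels give the strain, tissue and diet but do not say that the libraries came from separate animals. The extraction protocol in the labels speaks of an adipose type, whereas the tissue label reads abdominal aorta. No comparison was made with the other 6 libraries.

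The wall of an artery has an inner lining of endothelial cells, a thick media of smooth muscle cells lying between elastic sheets, and an outer adventitia of fibroblasts, collagen, small vessels, nerves and fat. Contractile smooth muscle cells hold smooth muscle actin and myosin, and they also make the elastin, collagen and proteoglycans that let the vessel stretch and recoil. Large elastic arteries near the heart hold more elastic sheets than the muscular arteries further down, and the abdominal aorta lies between these.

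The whole wall was sequenced, so each value mixes all of these cells, and fewer cells of a type cannot be told apart from less RNA per cell. Levels are given in FPKM, fragments per kilobase of transcript scaled to the mapped fragments of the library, which corrects for gene length and allows genes to be compared. Each mean is followed by the standard deviation over the 3 libraries. The total estimated count was between 64805289 and 75787978 per library. As a reference for small signals, 3 counts corresponded to 0.0396 to 0.0463 CPM, counts scaled to library size. Genes below this level were not removed.

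Of the 21357 genes in the table, 10120 (47.4%) reached 1 FPKM in all 3 NC libraries, and this is termed detected here. A further 1291 genes reached it in 1 or 2 of the libraries. Single libraries held 10686 to 10880 genes at this level, so the number differed little between them. Few genes were abundant. In all 3 libraries, 3526 genes reached 10 FPKM, 303 reached 100 FPKM and 22 reached 1000 FPKM. At the other end, 4192 genes were listed at 0 in all 3.

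The RNA was concentrated in few genes. The 10 most abundant genes of a library held 12.6%, 12.9% and 11% of its summed FPKM (mean 12.2% ± 1.03, SD, n = 3), and the 100 most abundant held 35.8% ± 1.47. Between 266 and 322 genes were enough to hold 50% of the sum. The libraries drew on largely the same genes, since 80 genes stood among the 100 most abundant of all 3 libraries and 121 genes stood there in any of them.

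Genes of contraction, matrix, mitochondria and protein synthesis led the list of abundant genes. COX1, a mitochondrially encoded subunit of cytochrome c oxidase, was highest at 5904, 7260 and 4855 FPKM in replicates 1, 2 and 3. COX3, a further subunit of the same enzyme, had 3563, 5516 and 3336 FPKM. The most abundant nuclear gene was SPARC, which encodes a collagen-binding matrix glycoprotein, at 2973, 3709 and 3772 FPKM (mean 3485 ± 444). Next to it stood smooth muscle actin (ACTA2) and the LIM-domain protein CSRP1, with means of 2939 ± 354 and 2926 ± 532 FPKM, followed by transgelin (TAGLN, 2827 ± 205), smooth muscle myosin heavy chain (MYH11, 2812 ± 482) and the actin crosslinker filamin A (FLNA, 2540 ± 244). The SDs of these neighbours overlap, so their order among the nuclear genes is not resolved. The ferritin heavy chain FTH1 (2452 ± 307), the translation elongation factor EEF1A1 (2375 ± 284) and matrix Gla protein (MGP, 2211 ± 259), a secreted inhibitor of calcification, came after them.

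**Figure D1:**
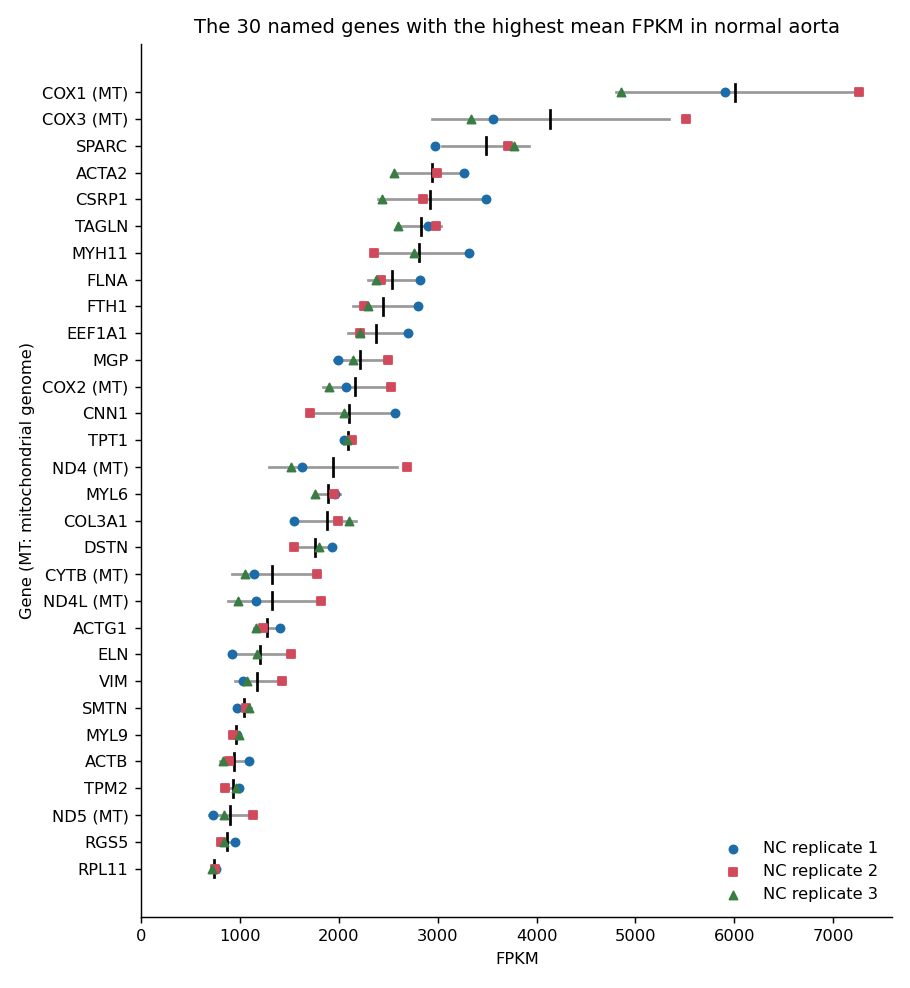
FPKM (linear axis from 0) of the 30 named genes with the highest mean in NC aorta, with a point for each library, a black tick for the mean and a grey bar for the mean ± SD (n = 3). COX1 lies apart at 4855 to 7260 FPKM, and replicate 2 is the highest library for the 7 mitochondrial genes shown.

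Contractile and cytoskeletal genes formed the largest functional group among the nuclear lists. The 12 smooth muscle markers and 36 further contractile and cytoskeletal genes together held 12.7%, 10.8% and 10.9% of the summed FPKM (mean 11.5% ± 1.05). All 48 of them reached 1 FPKM in every library, against 47.4% of all genes. The median smooth muscle marker had a mean of 947 FPKM, against 1.1 FPKM for the median of all genes in the table. ACTA2 (chromosome 14, 100865313 to 100886984, minus strand, Sscrofa11.1) had 3261, 2995 and 2560 FPKM, and MYH11 (chromosome 3, 7002706 to 7143100) had 3317, 2356 and 2763 FPKM. TAGLN (chromosome 9, 44560785 to 44567385) was closer between libraries, at 2904, 2982 and 2594 FPKM. The CVs of these 3 genes were 12.1%, 17.2% and 7.27% (CV, the SD as a share of the mean).

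Other parts of the contractile apparatus were abundant as well. Calponin (CNN1), an actin-binding regulator of contraction, had 2568, 1704 and 2052 FPKM. The essential light chain MYL6 (1893 ± 117) and the regulatory light chain MYL9 (963 ± 33.0) differed by 6.17% and 3.42% of their means. Leiomodin (LMOD1), which nucleates actin filaments in smooth muscle, was the steadiest of the 12 markers with 535, 554 and 546 FPKM and a CV of 1.79%. The myosin light chain kinase MYLK, which starts contraction, stood lower at 136 ± 16.8 FPKM, and SYNM, an intermediate filament protein, was the lowest of the list at 26.9 ± 2.82 FPKM. Levels within the group thus differed widely, from the actin of the filaments down to SYNM.

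Isoforms separated clearly in level. Smooth muscle myosin exceeded the non-muscle heavy chain MYH9 by 8.37-, 5.19- and 7.96-fold, and ACTA2 exceeded the cytoplasmic actin ACTB by 2.98-, 3.37- and 3.10-fold. The enteric smooth muscle actin ACTG2 was the most variable of the smooth muscle markers, with 523, 238 and 382 FPKM, and the ratio of ACTA2 to ACTG2 was 6.24, 12.6 and 6.70. Replicate 2 stood apart in this ratio. Desmin (DES), the muscle intermediate filament protein, was lowest in the same library, with 432, 265 and 367 FPKM, and vimentin (VIM), the filament protein of mesenchymal cells, was highest there, with 1027, 1421 and 1067 FPKM. Of the 36 cytoskeletal genes, PDLIM5, a LIM protein of the Z-disc, was the only gene with a CV above 50%. It had 34.9, 36.4 and 6.47 FPKM, low in replicate 3 alone.

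Extracellular matrix genes were a further large nuclear group. The 99 genes of the 5 matrix lists (collagens, elastic fibres, proteoglycans, basement membrane and matrix glycoproteins) held 6.59%, 7.76% and 7.53% of the summed FPKM, near the 6.94%, 6.32% and 5.98% of the ribosomal protein genes. Fibrillar collagens led among the collagens. COL3A1, the chain of type III collagen that gives the wall its distensibility, had 1543, 1996 and 2100 FPKM. COL1A1 and COL1A2, the chains of the stiffer type I collagen, had means of 739 ± 73.2 and 598 ± 48.1 FPKM. COL3A1 stood above COL1A1 by 2.34-, 2.48- and 2.80-fold, in the same direction in 3 of 3 libraries, and COL1A1 was 1.24 ± 0.111 times COL1A2.

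The network-forming and beaded collagens followed. COL4A2 of the basement membrane had 431 ± 34.3 FPKM and COL6A1, a chain of the microfibrillar type VI, had 465 ± 40.3 FPKM. The paired chains of type IV divided sharply, since COL4A5 and COL4A6 had 59.4 ± 15.8 and 76.8 ± 22.3 FPKM whereas COL4A3 and COL4A4, the chains of the kidney filter, were at 0.0396 and 0.108 FPKM. COL15A1 and COL18A1, which sit at basement membranes, and COL8A1, a vascular short-chain collagen, had 240 ± 16.5, 220 ± 19.2 and 181 ± 13.5 FPKM. Of 22 collagen genes found, 19 reached 1 FPKM in all libraries and 8 reached 100 FPKM, against 10120 and 303 of all 21357 genes.

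Elastin (ELN, chromosome 3, 11214424 to 11244894), the rubber-like protein of the elastic sheets, had 923, 1513 and 1177 FPKM (mean 1204 ± 296). Its CV of 24.6% placed it above the median CV of the abundant genes. MFAP4, a microfibril protein that binds elastin and collagen, was steadier at 721 ± 61.2 FPKM, and fibulin 5 (FBLN5), needed for elastic fibre assembly, had 188 ± 25.3 FPKM. Fibrillin 1 (FBN1), the scaffold of the microfibrils, had 26.5, 25.5 and 26.6 FPKM, while the mainly fetal form FBN2 had 0.982, 1.96 and 1.05 FPKM. The ratio of the fibrillins was 27.0, 13.0 and 25.2. Lysyl oxidases crosslink elastin and collagen, and LOXL1 (53.1 ± 6.90) and LOX (28.8 ± 6.68) were the most abundant of the family, with LOXL4 lowest at 0.480 ± 0.137 FPKM.

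Small leucine-rich proteoglycans were led by biglycan (BGN, 458 ± 77.0 FPKM), decorin (DCN, 207 ± 30.3), fibromodulin (FMOD, 192 ± 24.3) and PRELP (168 ± 23.1). Decorin had 172, 223 and 226 FPKM and lies on chromosome 5. The large proteoglycan perlecan (HSPG2) of the basement membrane had 304 ± 54.6 FPKM, far above the hyaluronan-binding versican (VCAN, 5.52 ± 2.05) and aggrecan (ACAN, 3.19 ± 1.94). Laminins divided by chain. LAMB2 (230 ± 8.22) and LAMA5 (110 ± 3.30) were abundant and steady, with LAMC1 and LAMB1 at 76.8 ± 6.70 and 71.9 ± 10.2 FPKM, whereas LAMA2 and LAMA3 stayed below 1 FPKM on average. LAMA1 was uneven, at 0.285, 2.69 and 0.717 FPKM.

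Among the matrix glycoproteins, fibronectin (FN1), which links cells to the matrix, ranged widely. It had 406, 1019 and 700 FPKM, a CV of 43.2%. SPARCL1 (372 ± 29.1), AEBP1 (475 ± 63.8) and IGFBP7 (606 ± 49.2) were steady, with CVs of 7.82% to 13.4%. Thrombospondin 1 (THBS1), an activator of TGF-β, had 87.0, 233 and 275 FPKM, low in replicate 1, and the integrin ligand CCN1 was lowest there too, at 92.5, 176 and 192 FPKM. CCN3, of the same family, went the other way with 403, 224 and 244 FPKM. Tenascin C (TNC), a matrix protein of remodelling and of load-bearing tissue, had 230 ± 40.05 FPKM.

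Inhibitors of matrix breakdown were among the most abundant members of the protease list. TIMP2, TIMP3 and TIMP1 had 263 ± 22.9, 221 ± 37.9 and 97.5 ± 5.73 FPKM. The gelatinase MMP2 had 77.3, 129 and 88.1 FPKM, and TIMP3 stood above it by 2.99-, 1.95- and 2.03-fold. MMP14, the membrane protease that activates MMP2, had 39.9 ± 8.63 FPKM, and MMP3 was at 0.00913 FPKM. The versicanases ADAMTS1 and ADAMTS8 had 108 ± 39.3 and 96.5 ± 25.9 FPKM. Of the 17 genes found that control calcification, 9 were detected, close to the 47.4% of all genes. MGP was the highest of them at 2211 FPKM. Inhibitors beside MGP included ANKH, a pyrophosphate exporter (22.8 ± 3.20), and ENPP1, which makes pyrophosphate (4.43 ± 1.23), while the bone regulator RUNX2 (0.175 ± 0.161), the cartilage regulator SOX9 (0.0302 ± 0.0210) and the phosphatase ALPL (0.0687 ± 0.0665) were all below 1 FPKM. The bone morphogenetic protein BMP4 was uneven, with 2.51, 6.45 and 16.2 FPKM.

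Transcripts of the mitochondrial genome made up 6.89%, 9.47% and 6.38% of the summed FPKM (mean 7.58% ± 1.66), with replicate 2 highest. By counts, which are not divided by gene length, the shares were 2.13%, 2.97% and 1.94%. Nuclear genes of oxidative phosphorylation were detected in full, 41 of 41, against 47.4% of all genes, with a median of 14.7 FPKM. The highest were COX4I1 (242 ± 26.1), ATP5PO (154 ± 13.3) and COX8A (104 ± 15.6). Unlike the mitochondrial genome they were not highest in replicate 2, since 28 of 41 were highest in replicate 1 and 3 in replicate 2, where 36.6% and 26.9% of all genes with a mean of 1 FPKM or more were highest.

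Protein synthesis genes were both abundant and steady. The 73 cytosolic ribosomal protein genes found held 6.41% ± 0.484 of the summed FPKM, their median mean was 188 FPKM and their median CV was 9.42%, against 16.6% over all genes with a mean of 1 FPKM or more. RPL11 was the highest at 755, 752 and 715 FPKM. TPT1, the translationally controlled tumour protein, had 2049, 2130 and 2086 FPKM with a CV of 1.95%. Ribosomal protein genes have many processed copies in mammalian genomes, so single values may carry reads from these.

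Glycolytic genes stood well below these groups, at 0.403% ± 0.0345 of the summed FPKM for 18 genes. GAPDH had 225, 203 and 192 FPKM and enolase 1 (ENO1) 180, 186 and 164 FPKM. The heart-type lactate dehydrogenase LDHB exceeded the muscle-type LDHA by 3.43-, 5.83- and 3.33-fold. Of the 18 genes of cholesterol synthesis found, all were detected, against 47.4% of all genes, at low levels with a median of 5.64 FPKM. Antioxidant genes were led by FTH1 and by the ferritin light chain FTL (460 ± 97.9), then by glutathione peroxidase 1 (GPX1, 323 ± 73.3). The extracellular superoxide dismutase SOD3, which vessels secrete into their matrix, was nearly as abundant as the cytosolic SOD1, with 47.2, 43.5 and 43.2 FPKM against 56.1, 51.5 and 48.1 FPKM.

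The annotation terms carried by the table gave the same picture. Among the 200 most abundant genes with a GO term, 20.5% were structural constituents of the ribosome, against 1.67% of 9488 detected genes with a term. For extracellular space the shares were 15.0% and 3.64%, for actin binding 9% and 1.67%, and for collagen-containing extracellular matrix 9% and 0.843%. Among KEGG pathways focal adhesion held 12.5% of the 200 most abundant annotated genes and 3.30% of 4028 detected ones. These are shares of lists and no enrichment test was run.

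Marker lists of 21 cell types were read as a check of the tissue label. Smooth muscle markers stood highest, followed by those that smooth muscle shares with pericytes. In the pericyte list 7 of 8 genes were detected, against 47.4% of all genes, with a median of 90.9 FPKM. RGS5, a regulator of G protein signalling in mural cells, had 949, 813 and 839 FPKM and the adhesion molecule MCAM 361, 388 and 316 FPKM, while the pericyte gene HIGD1B was at 0.690, 0.465 and 0.283 FPKM. Fibroblast markers were detected in 8 of 10 cases with a median of 5.78 FPKM. Fibulin 1 (FBLN1, 102 ± 8.43) and PI16 (61.1 ± 22.3), which marks adventitial fibroblasts, stood above PDGFRA (2.11 ± 0.667), the PDGF receptor of fibroblasts. PDGFRB, the receptor of mural cells, had 98.7 ± 8.06 FPKM.

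**Figure D2:**
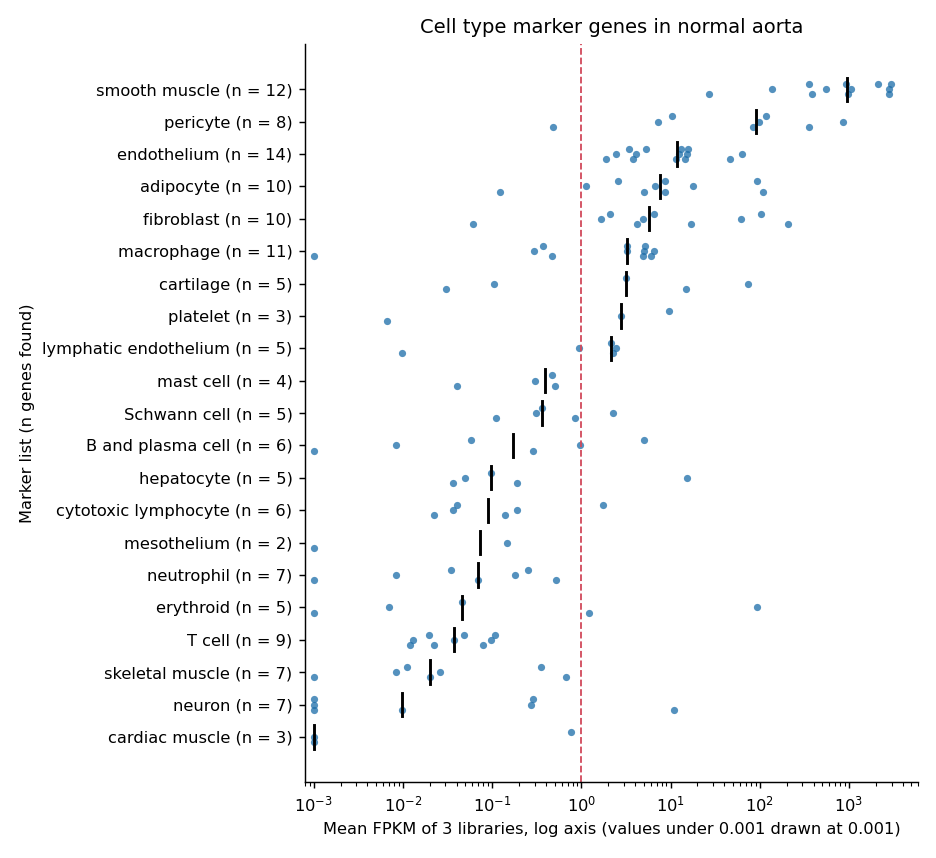
Mean FPKM over the 3 NC libraries (log axis) of every marker gene found, by cell type list, with a point for each gene, a black tick for the list's median and a dashed line at 1 FPKM. The smooth muscle list has a median of 947 FPKM and the endothelium list 11.9 FPKM, and the lists of T cells, neutrophils, skeletal muscle and cardiac muscle lie wholly below 1 FPKM.

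Endothelial genes were detected in every library and were uneven between them. All 14 markers found reached 1 FPKM throughout, against 47.4% of all genes. PECAM1 (chromosome 12), the junction protein CD31, had 26.9, 74.5 and 37.7 FPKM. The endothelial cadherin CDH5 had 10.1, 23.7 and 13.5 FPKM and von Willebrand factor (VWF) 8.34, 21.7 and 7.44 FPKM. ESAM, the most abundant marker of the list, was steadier, with 57.3, 67.8 and 65.5 FPKM and a CV of 8.70%. Replicate 2 was the highest library for 14 of the 14 genes, whereas it was the highest for 26.9% of all genes with a mean of 1 FPKM or more. The summed level of the list was 156, 296 and 188 FPKM, which made 0.0585%, 0.108% and 0.0708% of the total.

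Some further genes of endothelial function were also highest in replicate 2. The nitric oxide synthase NOS3, a member of the list that makes the main relaxing signal of the endothelium, had 8.63, 24.1 and 11.4 FPKM, and the constrictor peptide EDN1 had 4.03, 22.1 and 5.4 FPKM. Plasminogen activator (PLAT) had 33.0, 66.6 and 44.4 FPKM and thrombomodulin (THBD) 23.2, 36.2 and 25.1 FPKM. P-selectin (SELP), which endothelial cells store and release, did not follow, with 1.68, 3.18 and 6.14 FPKM. The ratio of MYH11 to PECAM1 was 124, 31.6 and 73.2, lowest in replicate 2.

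Adipocyte markers were present at low levels and moved with the same library. Of 10 genes found 8 were detected, against 47.4% of all genes. Of the 9 with a mean of 1 FPKM or more 8 were highest in replicate 2, where 26.9% of all such genes were. Adiponectin (ADIPOQ), the hormone of fat cells, had 4.44, 14.6 and 6.83 FPKM and perilipin 1 (PLIN1), the coat protein of fat droplets, had 3.59, 16.5 and 5.91 FPKM. Leptin (LEP) stayed at 0.102 to 0.140 FPKM. The list's summed level was 199, 324 and 235 FPKM, most of it from PNPLA2 (77.3, 132 and 118) and FABP4 (81.5, 122 and 75.1), of which FABP4 is also found in endothelium. The part of tissue makeup in the differences of replicate 2 was not tested.

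Immune cells left few transcripts. Macrophage markers were detected in 7 of 11 cases, against 47.4% of all genes, with a median of 3.28 FPKM. CD68, a lysosomal protein of macrophages, had 6.23, 4.36 and 4.10 FPKM, and the complement genes C1QA, C1QB and C1QC, which resident macrophages make, had means of 3.28 ± 0.676, 6.04 ± 2.27 and 5.06 ± 1.33 FPKM. Of the 7 with a mean of 1 FPKM or more, 6 were highest in replicate 1, where 36.6% of all genes were highest. The exception was the scavenger receptor CD163, with 1.83, 3.16 and 4.73 FPKM. MARCO was listed at 0. None of the 9 T cell markers reached 1 FPKM in a library, the highest mean being that of CD2 at 0.107 FPKM, and all 7 neutrophil genes and all 4 mast cell genes stayed below 1 FPKM. Among B cell genes CD79A had 5.46, 4.44 and 5.4 FPKM while MS4A1 was listed at 0, so its level did not go with that of MS4A1.

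Blood, nerve and neighbouring tissues were checked in the same way. Beta globin (HBB) had 30.2, 124 and 122 FPKM, low in replicate 1, and ALAS2, the heme synthesis enzyme of red cells, had 0.358, 1.66 and 1.67 FPKM. TH, DBH and SNAP25 of sympathetic nerves were listed at 0, and of the neuron list UCHL1 alone was detected, at 14.4, 10.4 and 7.72 FPKM. Skeletal and cardiac muscle genes stayed below 1 FPKM, with TNNT2, TNNT3 and NPPA listed at 0. APOA1, the main protein of HDL, was the only detected gene of the hepatocyte list, at 13.9, 21.5 and 10.1 FPKM, with albumin (ALB) at 0.190 ± 0.178 FPKM. Among cartilage genes, COMP, a thrombospondin that smooth muscle also makes, had 24.7, 76.5 and 122 FPKM, and CHAD, a leucine-rich matrix protein, had 8.05, 27.6 and 9.44 FPKM. Aggrecan was also highest in replicate 2, with 2.54, 5.38 and 1.66 FPKM for ACAN, whereas COL2A1 and SOX9 stayed below 0.2 FPKM on average.

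Receptors that act on vessel tone were mostly at low levels. Of 27 receptors 13 reached 1 FPKM in all libraries, close to the 47.4% of all genes, and their median was 1.75 FPKM. The prostaglandin receptor PTGER3 was the highest at 18, 16.1 and 18.9 FPKM, followed by the endothelin receptor EDNRA at 13.8, 10.2 and 16.4 FPKM. EDNRA exceeded EDNRB by 7.58 ± 0.960-fold. The angiotensin receptor AGTR1 had 1.21, 4.53 and 4.37 FPKM, low in replicate 1, and AGTR2 was at 0, 0 and 0.0261 FPKM. Of the alpha-1 adrenergic receptors, ADRA1B and ADRA1D had 4.56 ± 1.1 and 4.60 ± 1.28 FPKM, indistinguishable given their SDs, and ADRA1A had 0.312 ± 0.101 FPKM.

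Ion channels and calcium handling genes were detected in 25 of 31 cases, against 47.4% of all genes. KCNMB1, the beta subunit of the calcium-activated potassium channel of smooth muscle, was the most abundant at 215, 200 and 173 FPKM, above its pore subunit KCNMA1 (18.3 ± 3.49). The voltage-gated potassium channel KCNA5 had 77.8 ± 14.2 FPKM, the L-type calcium channel CACNA1C 14.4, 15.3 and 14 FPKM and the T-type channel CACNA1H 62.9 ± 3.82 FPKM. Phospholamban (PLN) had 117 ± 18.3 FPKM, and the calcium pump that it regulates, ATP2A2, had 66.5, 31.8 and 39.6 FPKM, above ATP2A3 in all 3 libraries. In the cGMP pathway, the natriuretic peptide receptors NPR1 and NPR2 had low CVs, with 86.1 ± 1.21 and 22.6 ± 0.365 FPKM, as had caveolin 1 (CAV1, 130 ± 2.57). PDE5A, which degrades cGMP, varied widely, with 17.3, 8.56 and 1.20 FPKM.

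Transcription factors that set smooth muscle identity were present. The serum response factor SRF had 44.1, 37.0 and 43.1 FPKM and its coactivator myocardin (MYOCD) 19.6, 35.4 and 26.1 FPKM. The Notch effectors HEYL (133, 144 and 124 FPKM) and HEY2 (51.9, 52.9 and 45.7 FPKM) were the most abundant of the 30 vascular factors together with FOXC2 (47.1 ± 2.67). GATA6 had 21.6 ± 1.13 FPKM, whereas the cardiac factor GATA4 had 0.0213 ± 0.0185 FPKM and NKX2-3 was listed at 0. HAND2 was at 0.0754, 2.09 and 0.0882 FPKM, above 1 FPKM in replicate 2 alone.

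HOX genes mark position along the body axis, and low paralog numbers are used towards the head and high ones towards the tail. Of the 34 HOX genes found, 18 were detected, close to the 47.4% of all genes. HOXC6 was the highest at 58.4, 46.4 and 47.6 FPKM, followed by HOXA9 (42.9, 28.0 and 27.5), HOXA5 (27.9, 23.0 and 38.0), HOXC10 (21.0, 16.6 and 18.9) and HOXA10 (12.8, 23.4 and 12). The SDs of HOXA9 (32.8 ± 8.77) and HOXA5 (29.6 ± 7.64) overlap, as do those of HOXC10 (18.9 ± 2.20) and HOXA10 (16.1 ± 6.36). The A and C clusters supplied all of these. In the B cluster HOXB6 was highest at 6.62, 9.51 and 2.39 FPKM and in the D cluster HOXD4 at 6.92, 8.91 and 4.77 FPKM. Beyond group 10 little was seen: HOXC13, HOXD11 and HOXD13 were listed at 0, HOXA13 and HOXC11 stayed below 0.4 FPKM in every library, and HOXA11 varied widely, at 0.112, 6.88 and 2.40 FPKM.

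**Figure D3:**
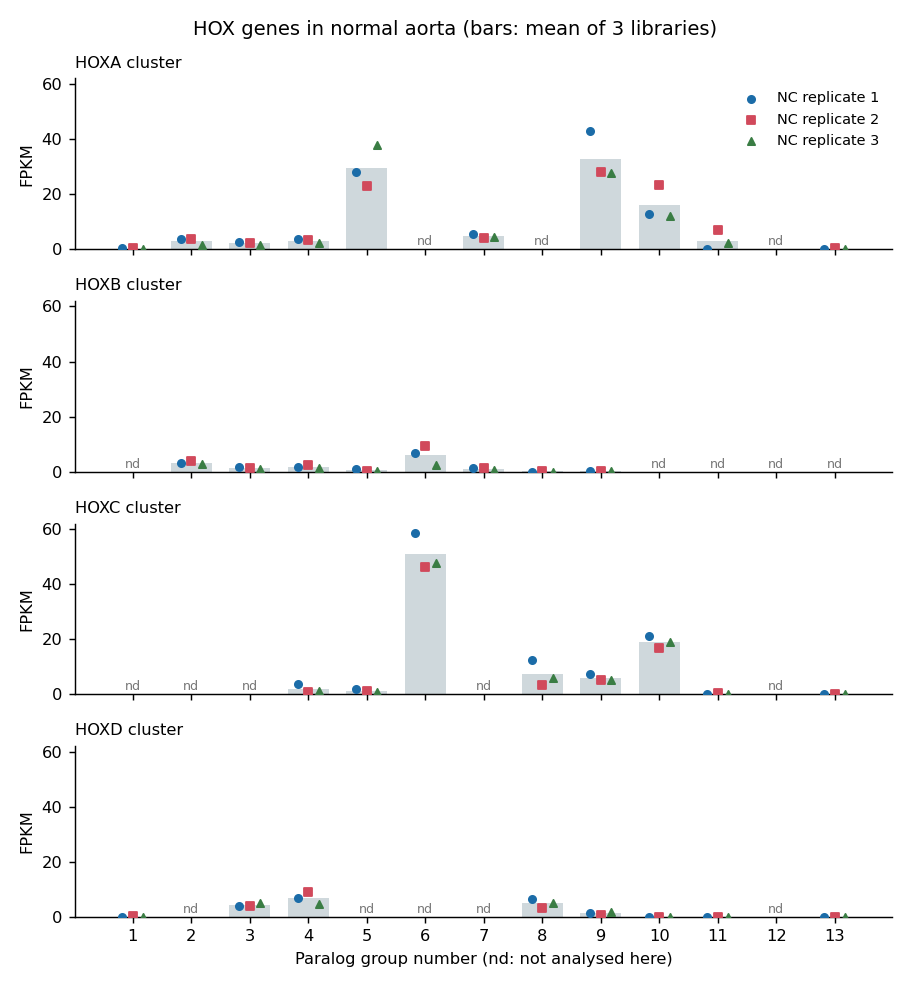
FPKM (linear axis) of the HOX genes of the 4 clusters by paralog group number, with bars for the mean of 3 NC libraries and a point for each library; nd marks positions not analysed here. HOXC6 and HOXA9 are the highest at means of 50.8 and 32.8 FPKM, and no gene of group 13 exceeds 0.3 FPKM in any library.

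Ligands and receptors of signals between cells differed widely in transcript level. TGFB3 had 62.6, 91.9 and 204 FPKM and was above TGFB1 (16, 23.4 and 16.1) and TGFB2 (4.53, 4.14 and 3.95) in every library. The type II receptor TGFBR2 had 36.6 ± 3.20 FPKM and the type I receptor TGFBR1 0.285, 1.46 and 0.285 FPKM. Latent TGF-β binding proteins, which store these ligands in the matrix, were abundant, with LTBP4 at 199 ± 31.9 and LTBP1 at 136 ± 26.4 FPKM. Complement regulators SERPING1 (151 ± 15.5) and clusterin (CLU, 127 ± 33.8) stood above C3 (26.0 ± 4.50), and C5 was at 0.0958 ± 0.0349 FPKM. Cell division genes were scarce, with MKI67, the proliferation marker, at 1.37, 0.572 and 1.32 FPKM and CDK1 at 0.204 ± 0.0956 FPKM.

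The spread among libraries was examined next. Over the 10848 genes with a mean of 1 FPKM or more the median CV was 16.6%, and 703 genes (6.48%) had a CV above 50%. The median CV of FPKM fell with level up to 1000 FPKM. It was 44.9% for genes with a mean from 0.1 to 1 FPKM, 19.1% from 1 to 10, 13.3% from 10 to 100 and 11.7% from 100 to 1000. It was 14.9% for the 25 genes at 1000 FPKM or more, which include mitochondrial genes that were high in replicate 2. On the counts, the common biological coefficient of variation estimated with edgeR was 27.6%, which weighs variable genes more than a median does, and the median trended value was 29.1% for genes from 1 to 10 FPKM, 21.9% from 10 to 100, 22.2% from 100 to 1000 and 22.6% above. Between pairs of libraries, 6.72% to 7.63% of genes differed by more than 2-fold.

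**Figure D4:**
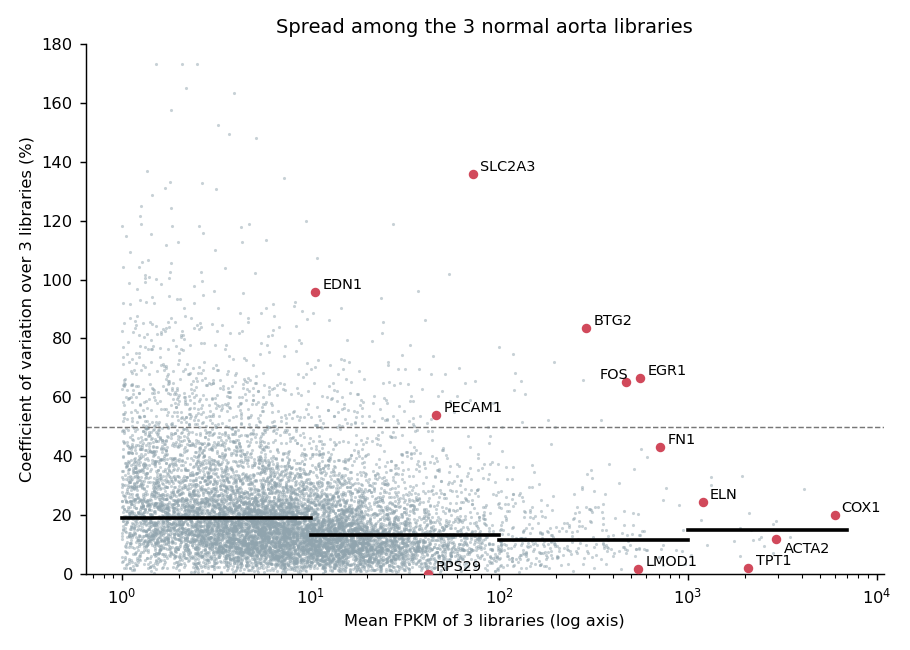
CV over the 3 NC libraries (%, linear axis) against mean FPKM (log axis) for each of the 10848 genes with a mean of 1 FPKM or more, with black lines for the median of each level bin, a dashed line at a CV of 50% and 13 genes labelled. The medians fall from 19.1% to 11.7% between the first and the third bin, and SLC2A3 at 136% lies far above genes of its level.

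No library stood apart in the number of genes far above the others. Replicate 1 was more than 2-fold above both others for 155 genes, replicate 2 for 138 and replicate 3 for 129. The median gene deviated from its mean over libraries by 0.02, -0.03 and 0.02 on the log2(FPKM + 0.1) scale. FPKM is scaled to the library total, which keeps this median small, so it cannot show whether a library stood apart. The differences gathered in particular gene groups instead. Of the 20 named genes with the highest CV at a mean of 10 FPKM or more, 16 were highest in replicate 3. Of all genes with a mean of 1 FPKM or more, 36.5% were highest in that library.

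Immediate early genes, which are induced within minutes of a stimulus, had the highest median CV of the 31 function lists, 51.7%. Together they held 0.499%, 1.12% and 1.45% of the summed FPKM. EGR1 had 156, 627 and 889 FPKM, FOS 123, 586 and 706 FPKM and NR4A1 59.8, 185 and 341 FPKM. The mRNA-destabilizing protein ZFP36 had 95.5, 276 and 461 FPKM, and BTG2, an antiproliferative gene of the same kind of response, 63.1, 258 and 541 FPKM. Replicate 1 was the lowest library for 15 of the 19 genes with a mean of 1 FPKM or more and replicate 3 the highest for 16 of them. Over all 10848 genes at this level, replicate 1 was lowest for 3376 and replicate 3 highest for 3957. Of the 19 genes 10 had a CV above 50%, against 6.48% of all genes. JUN did not follow, with 375, 456 and 259 FPKM, and ATF3 was lowest in replicate 2, with 72.4, 20.3 and 105 FPKM.

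**Figure D5:**
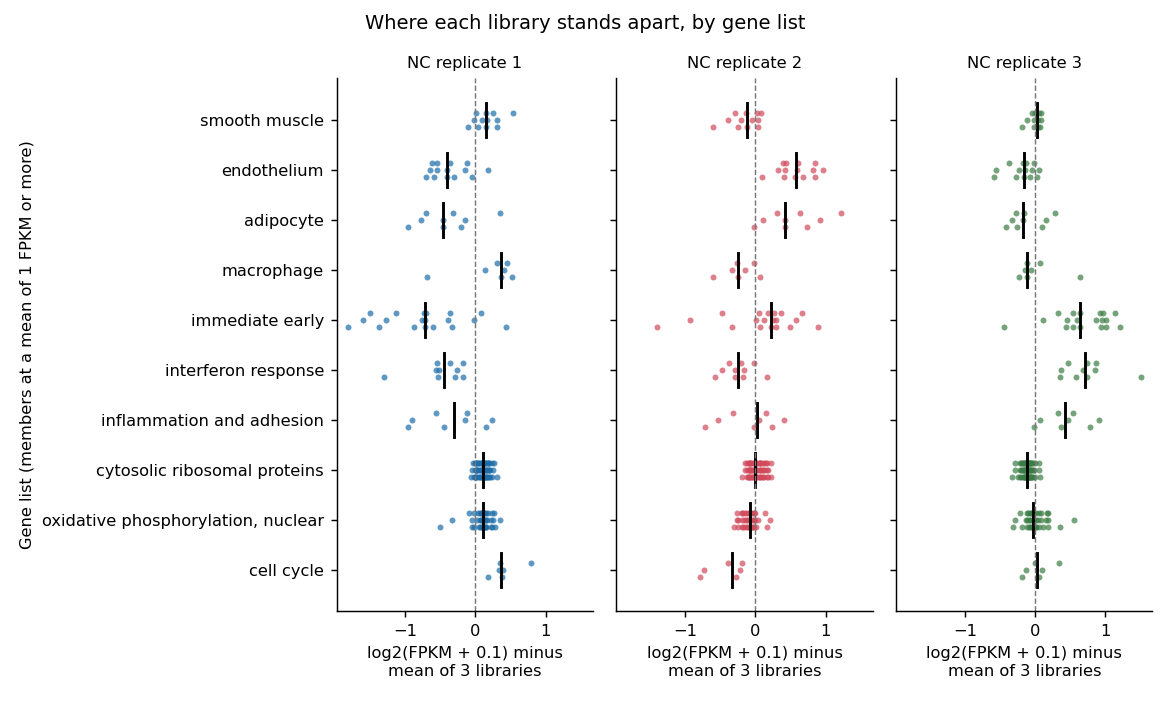
Deviation of each library from the mean of the 3 NC libraries on the log2(FPKM + 0.1) scale for the members of 10 gene lists with a mean of 1 FPKM or more, with a point for each gene and a black tick for the median. The immediate early list has medians of -0.72, 0.22 and 0.64 in replicates 1, 2 and 3, and the endothelium list -0.41, 0.58 and -0.16.

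Interferon and inflammatory genes were highest in replicate 3. All 10 interferon-stimulated genes with a mean of 1 FPKM or more had their highest value in that library, where 36.5% of all genes did. The antiviral GTPase MX1 had 27.5, 23.8 and 55.4 FPKM, IFI6 had 14.3, 17.2 and 38.3 FPKM and the chemokine CXCL10 0.647, 1.51 and 5.13 FPKM. Of 8 inflammatory and adhesion genes 7 were highest there. IL6 had 4.19, 4.59 and 9.94 FPKM, with NFKBIA the exception at 60.4, 74.4 and 66.1 FPKM. Regulators of the same pathway were among the genes with the highest CV. NFKBIZ had 16.1, 24.7 and 80.4 FPKM and BCL3 had 3.84, 6.40 and 20.9 FPKM. Endothelial and macrophage markers were not highest in this library, as given above, apart from CD163.

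The glucose transporter SLC2A3 had the highest CV of all named genes at a mean of 10 FPKM or more, with 10.8, 20.5 and 185 FPKM and a CV of 136%. Heat shock genes were split. HSPH1 (8.22, 12.4 and 28.4 FPKM), DNAJA1 (13.1, 17.5 and 34.3) and HSPA8 (67.7, 51.7 and 113) were highest in replicate 3. The small heat shock protein HSPB1 was instead highest in replicate 2, with 215, 366 and 240 FPKM. CRYAB, a chaperone of muscle, was steady at 139 ± 9.97 FPKM. HSPA1A, HSPA1B and HSP90AA1 of the same list were not found by name. Glucocorticoid-responsive genes had summed levels of 316, 409 and 570 FPKM. Of the 8 genes 5 were highest in replicate 3, where 36.5% of all genes with a mean of 1 FPKM or more were. The 8 did not all move together. FKBP5 had 52.1, 40.05 and 41.8 FPKM and ZBTB16 45.4, 67.8 and 95.7 FPKM. Of the 8 hypoxia genes none had a CV above 50%, and VEGFA, the vessel growth factor, had 7.71 ± 1.28 FPKM.

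Clock genes are turned on and off in opposite phases over the day, and some of the 16 found differed in opposite directions between the libraries. ARNTL, the activator of the clock, had 0.603, 2.28 and 6.38 FPKM, and NPAS2 and CLOCK, its partners, had 3.13, 3.24 and 5.08 and 1.95, 2.81 and 3.75 FPKM. The output gene DBP had 5.62, 1.45 and 0.998 FPKM, PER3 had 8.85, 5.69 and 3.01 FPKM and TEF had 13.0, 8.85 and 7.63 FPKM. The activators named thus had their lowest values in replicate 1, by little for NPAS2, and these targets their highest. Over the list, 8 of the 16 genes were highest and 8 lowest in replicate 1. Of all 10848 genes with a mean of 1 FPKM or more, 3975 were highest and 3376 lowest there. The list's median deviations on the log2 scale were 0.00, 0.06 and -0.01. PER1 and NR1D1, also targets, did not follow, with 45.2, 63.2 and 57.5 FPKM and with 1.37, 3.17 and 1.39 FPKM.

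Several lists had most of their highest values in replicate 1, where 36.6% of all genes with a mean of 1 FPKM or more were highest. Of the 73 ribosomal protein genes 53 were highest in it and 59 were lowest in replicate 3, where 3356 of the 10848 genes were lowest, with median deviations of 0.11, 0.00 and -0.12 on the log2 scale. All 6 cell cycle genes with a mean of 1 FPKM or more were highest in replicate 1, among them PCNA with 7.59, 5.54 and 7.13 FPKM, and the list's median deviations were larger, at 0.36, -0.33 and 0.03. Glycolytic genes were highest there in 12 of 17 cases, housekeeping genes in 12 of 15, smooth muscle markers in 8 of 12 and the contractile and cytoskeletal genes in 21 of 36. Cholesterol synthesis genes were divided, with 8 of 18 highest in replicate 1 and 8 in replicate 3. Single genes high in this library were SERINC1 (26.7, 8.00 and 8.78 FPKM), the cation transporter SLC22A3 (29.1, 11 and 7.79) and PIK3R1, a subunit of PI3 kinase (23.1, 7.46 and 7.54). Genes low in replicate 3 alone included SOST, an inhibitor of Wnt signalling (29.0, 42.8 and 5.89 FPKM), ISLR (85.3, 54.3 and 15.2), the cadherin CDH3 (18.6, 16.2 and 4.11) and CD47, the signal that keeps macrophages from engulfing a cell (17.7, 13.0 and 2.15).

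Some of the variable genes share their position with another gene, and their values are uncertain. PRDX2 (chromosome 2, 66207880 to 66216017, plus strand), an antioxidant enzyme, had 20.02, 143 and 192 FPKM, lowest in replicate 1. JUNB, an immediate early gene, lies inside this interval on the minus strand (66214594 to 66215637) and was listed at 0 in all 3 libraries. SPIDR, with 15.3, 2.63 and 64.4 FPKM, overlaps CEBPD, an acute phase regulator with 37.4, 76.2 and 186 FPKM, and SBNO2 overlaps GPX4, in both cases on the opposite strand. Whether the libraries kept strand is not stated, so reads of such pairs cannot be told apart. The same holds for the abundant TAGLN, which overlaps PCSK7 on the opposite strand. FLNA overlaps RPL10 on the same strand, so that reads from the shared bases could belong to either. AHNAK is present as 2 overlapping entries on the same strand, and the values of 18.5, 78.0 and 14.5 FPKM belong to the entry with the higher mean. A 136-base entry with no name inside COL3A1 had a mean of 1706 FPKM, and such short features are inflated by division by length.

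The steadiest genes lay at moderate levels. Among named genes with a mean of 10 FPKM or more, RPS29 had 41.8, 41.7 and 41.8 FPKM with a CV of 0.169%, followed by the RNase P subunits RPP25L (0.308%) and RPP21 (0.555%), the chromatin reader BRD2 (0.638%) and the transcription factor USF2 (0.646%). These genes were chosen for the lowest CV, so the values are a description. Of genes commonly used as references, PPIA (213 ± 6.83 FPKM, CV 3.21%) and SDHA (54.4 ± 2.68, CV 4.94%) varied less than GAPDH (207 ± 16.6, CV 8.01%), ACTB (936 ± 140, CV 14.9%) and B2M (73.5 ± 16.5, CV 22.5%). The 3 libraries do not allow these CVs to be ranked by a test.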

How the data were processed

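Poly(A) RNA of the aortic wall was sequenced as paired ends on an Illumina instrument. Alignment was to the pig build Sscrofa11.1, with HISAT2 2.0, and the deposited FPKM values were made by the authors with StringTie 1.3.0. The submitters' processing notes also name Bowtie 0.12.2 and the build mm8, whose role is not given in the sources used here. Estimated counts, without depth normalization, were deposited in the same file as whole numbers. How they were derived and the annotation release are not given in the sources used here.

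Only the 3 NC libraries were used, and the 6 others were not analysed here. Libraries were grouped by title. One group allows no test between groups, and no p-value was computed. The SD covers the spread between these samples, which may include technical spread. The members and gene lists were chosen with earlier results of these data known. For 1647 genes listed by ID or by a date-like name, symbols were taken from the RefSeq (Sscrofa11.1) and Ensembl ID tables, and 3493 kept their ID. Where a name occurred more than once, a name given by the table was preferred and then the gene with the highest mean FPKM. Of 815 genes on 52 lists, 763 were found.

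A gene was called detected at 1 FPKM or more in all 3 libraries. CVs were computed on FPKM for genes with a mean of 1 FPKM or more, and deviations on log2(FPKM + 0.1). Estimated counts were analysed in edgeR 4.0.16 (R 4.3.3, limma 3.58.1) with TMM scaling and an intercept only, to give the biological coefficient of variation. This step was tested on simulated data. Tables and plots were made in Python 3.11.15 with pandas 2.3.3, numpy 2.4.6 and matplotlib 3.10.9.

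Named genes are list members, the 40 most abundant named genes with and without mitochondrial ones, the 20 highest and 10 lowest CVs among named genes with a mean of 10 FPKM or more, and in each library the 5 genes furthest above and below the mean of the other libraries. JUNB's neighbour PRDX2 and the unnamed entry inside COL3A1 are described for their overlap. Some list members are not reported here. A planned search of promoters for a smooth muscle motif was not run. Depth limits low genes most: 3 counts, a reference level and not a filter, cover counting error only.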

Additional observations from a re-analysis of the deposited data

How the results depend on the processing

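The number of detected genes, 10120, was 10848 with a mean of 1 FPKM in place of a value in all 3 libraries, 12092 with TPM, 13176 with 0.1 FPKM and 13434 with 10 counts, and 10300 to 10373 when a library was left out. The share of the 10 most abundant genes was 10.8% without mitochondrial genes and 11.8% to 12.8% when a library was left out. Leaving out features under 300 bases, an alternative chosen after seeing the data, gave 12.6%. The median smooth muscle and endothelial marker had 3519 and 44.1 TPM, since 1 TPM is less than 1 FPKM in these libraries. Without a library the smooth muscle median was 931 to 976 FPKM, and the endothelial median was 8.39 FPKM without replicate 2 and up to 13.5 FPKM without another. The median CV was 17.0% with TPM, 20.2% for genes with a mean of 0.1 FPKM or more, 13.2% for 10 FPKM or more and 13.9% from log2(FPKM + 1). From 2 libraries it was 13.3% to 13.9%, below 16.6% whichever library was left out. Medians from 2 and from 3 values per gene are not directly comparable. The number of genes with a CV above 50% was 2213, 146 and 419 under the same 3 changes of filter and scale, and 686 to 775 when a library was left out. The biological coefficient of variation was 34.4% and 21.7% with the lower and the higher filter, and 26.5% to 28.6% without a library. The filters change which genes enter. Counts of list members highest in a given library, recomputed with TPM and TMM-scaled FPKM after seeing the data, stayed within 1.5-fold for all 13 lists. Ribosomal protein genes highest in replicate 1 numbered 54 and 45, and endothelial genes highest in replicate 2 numbered 13 and 14. No paired analysis was possible because a single group was used. With 3 libraries, spread is known poorly for any single gene, and values near 0.04 CPM rest on few reads.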
